A study of Mus musculus with 384 samples.

Results

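The genes described here are those that build and assemble the oxidative phosphorylation system of mouse mitochondria. They were taken by name from the protein-coding genes of both count tables: names starting with Nduf and a, b, c, s or v (without Ndufa4l2), Cox4 to Cox8, Uqcr, Atp5, or mt-. This gave 101 genes of the 40594 listed, 88 encoded in the nucleus and 13 in mitochondrial DNA. By name, the nuclear members were 37 complex I subunits, 8 complex I assembly factors (Ndufaf), 8 subunits of complex III (Uqcr), 18 of complex IV (Cox) and 17 of ATP synthase (Atp5). Atp5s and Atp5sl carry the Atp5 name without being subunits of the enzyme.

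Oxidative phosphorylation passes electrons along complexes I to IV of the inner mitochondrial membrane to oxygen, pumping protons that ATP synthase uses to make ATP. Complex I takes electrons from NADH, complex III hands them to cytochrome c, and complex IV, cytochrome c oxidase, reduces oxygen. The mitochondrial genome encodes only core subunits, all of which are made on mitochondrial ribosomes; every other subunit and all assembly factors come from nuclear genes, so each complex except complex II is built from both genomes. In the kidney this system is best known from the proximal tubule, whose transport runs on it. Fibroblasts, pericytes, endothelium and macrophages are the cells usually found between the tubules.

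Single cells of mouse kidney, at 8 weeks of age, were sorted into the wells of 96-well plates by surface protein. A PDGFRB+CD45- gate and a PDGFRB+CD45+ gate were each sorted as 1 plate in each of 2 batches, 384 wells in all. PDGFRB is a growth factor receptor of fibroblasts and pericytes, and CD45 is the leukocyte common antigen. The labels give no strain, sex or genotype and name no animals, and every well name includes the letters UUO, an abbreviation that they leave unexplained. Each plate therefore counts as 1 sample: the second batch is the only repeat of a gate, wells are not replicates, and no p-value is given.

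Of the 384 wells, 368 were kept, with 10000 or more reads and 500 or more detected genes: 93 in each CD45- plate, and in the CD45+ gate 92 (batch 1) and 90 (batch 2). Their reads ranged from 10497 to 1246070, with plate medians of 225559 to 288818. Levels are CPM, read counts scaled to a fixed total of reads on genes, of the summed reads of a plate or class unless a well is named. Reads carry no molecular identifiers, so intervals cover counting error only. The leukocyte list (Ptprc, which encodes CD45, and 4 others) summed to 63.99 and 208 CPM in CD45- and to 18006 and 13888 CPM in CD45+. The level of Pdgfrb was 294 and 220 CPM in CD45- but 0.113 and 5.73 CPM in CD45+, so the message of the sorted receptor was near 0 in the gate labelled PDGFRB+CD45+. The proximal tubule list (Slc34a1, Lrp2 and 5 others) summed to 28.1 to 156 CPM over the plates.

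The kinds of well compared were set apart by marker genes. Collagen-rich wells of the CD45- gate held at least 1000 CPM of Col1a1, Col1a2 and Col3a1 together (52 and 41 wells in batches 1 and 2). Endothelial wells of the same gate held at least 3 of 10 endothelial genes such as Pecam1, Cdh5 and Kdr at 100 CPM or more (15 and 21 wells). C1q-rich wells of the CD45+ gate held at least 1000 CPM of the complement genes C1qa, C1qb and C1qc, which macrophages express (79 and 84 wells). The 19 and 16 CD45- wells that met both the collagen and the endothelial rule were put in neither class, and their median reads per well were 55831 and 18140, below those of collagen-rich (349263 and 448050) and endothelial wells (308142 and 243314). A class cut from a marker level is a range rather than a type: 21 and 25 CD45- wells lay between 500 and 2000 CPM of collagen, and 19 and 10 CD45+ wells lay between those values of C1q. The median C1q level in collagen-rich wells was 8.01 and 22.9 CPM, and the median collagen level in C1q-rich wells was 34.8 and 89.9 CPM. Endothelial wells also carried other markers. A list of 6 smooth muscle and pericyte genes summed to 1378 and 2314 CPM in them, beside 5363 and 4069 CPM in collagen-rich wells. C1q summed to 261 and 646 CPM. In the median endothelial well these were 458 and 140 CPM for the 6 genes and 19.8 and 40.7 CPM for C1q. Summed over the wells of a class, collagen was 85.4 and 2490 CPM in C1q-rich wells beside 19060 and 22502 CPM in collagen-rich wells, and 7 and 11 CD45+ wells held 1000 CPM of collagen or more. Without these, and without CD45- wells that passed the C1q rule, the log2 ratio of C1q-rich over collagen-rich was 0.03 and -0.11 for nuclear and 0.67 and 0.22 for mt- sums. C1q-rich and collagen-rich wells come from different gates and plates, so class, gate and plate cannot be told apart in that comparison.

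The 13 mt- genes did not all receive reads, and this decides what their sum can show. In their order along the mitochondrial genome, the 6 neighbours from mt-Co2 through mt-Nd4l were at or near 0. In all kept wells together, mt-Co2, mt-Atp8, mt-Atp6 and mt-Nd4l had 0 reads, mt-Co3 had 1 and mt-Nd3 had 655, while mt-Cytb, the cytochrome b of complex III, had 533714. Of the 50-base words of mt-Co2, which encodes a core subunit of complex IV, 100% also stand in another annotated transcript, 632 of 635 of them in Gm28661, an unprocessed pseudogene on the nuclear genome. The reads were 50 bases long, so such a word is the length of a read. The same share was 99.9% for mt-Co3 (Gm28437), 99.5% for mt-Atp6 (Gm10925), 98.8% for mt-Nd4l (Gm10222) and 98.0% for mt-Nd3 (Gm28438). It was 62.2% for mt-Nd4, 51.1% for mt-Co1, 8.2% for mt-Nd2, 7.6% for mt-Nd5, and 0% for mt-Nd1, mt-Nd6 and mt-Cytb. The stretches below show 2 of these genes with their copies, identical over the stretch for mt-Co2 and different at 1 base for mt-Nd3, beside mt-Cytb, which has no annotated copy, and mt-Atp8, which had no reads but shares none of its words with another annotated transcript. They are the first 60 bases of the GENCODE M21 transcripts, 5′ to 3′, with a base that differs between gene and copy in capitals.
mt-Co2: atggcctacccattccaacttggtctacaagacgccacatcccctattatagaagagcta
Gm28661: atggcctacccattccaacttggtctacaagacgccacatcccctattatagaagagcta
mt-Nd3: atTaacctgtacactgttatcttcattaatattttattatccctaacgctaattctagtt
Gm28438: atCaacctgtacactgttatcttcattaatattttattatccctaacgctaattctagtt
mt-Cytb: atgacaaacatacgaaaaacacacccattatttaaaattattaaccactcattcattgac
mt-Atp8: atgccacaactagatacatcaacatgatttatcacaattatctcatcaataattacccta
Over 681 aligned bases, mt-Co2 and Gm28661 had 0 mismatches, and mt-Co3 and Gm28437 had 0 over 783. The 1 mismatch between mt-Nd3 and Gm28438 over 345 bases is T3C, counted from 1 at the 5′ end of mt-Nd3, with the base of mt-Nd3 first.

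The copies lie together. Pseudogenes matching 7 mt- genes, from mt-Co1 through mt-Nd4, stand in a row on the minus strand of chr1:24611535-24616197 (GRCm38, GENCODE M21), a block of 4663 bases. Measured from the start of mt-Co2 and of its copy, mt-Atp6, mt-Co3 and mt-Nd3 begin 914, 1594 and 2446 bases further on in both places. The annotation places no copy of mt-Atp8 in the block, between the copies of mt-Co2 and mt-Atp6. Whether unannotated sequence there matches mt-Atp8 was not tested. The pseudogenes of the block were themselves almost without reads, 75 in all kept wells together. How reads that match in several places were counted is not given in the sources used here, and its part in the zeros was not tested. The sum of mt- genes is therefore the sum of 7 genes with at least 20 CPM: mt-Nd1, mt-Nd2, mt-Nd4, mt-Nd5 and mt-Nd6 of complex I, mt-Cytb of complex III and mt-Co1 of complex IV. No level can be given for either ATP synthase subunit of mitochondrial DNA.

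**Figure D1:**
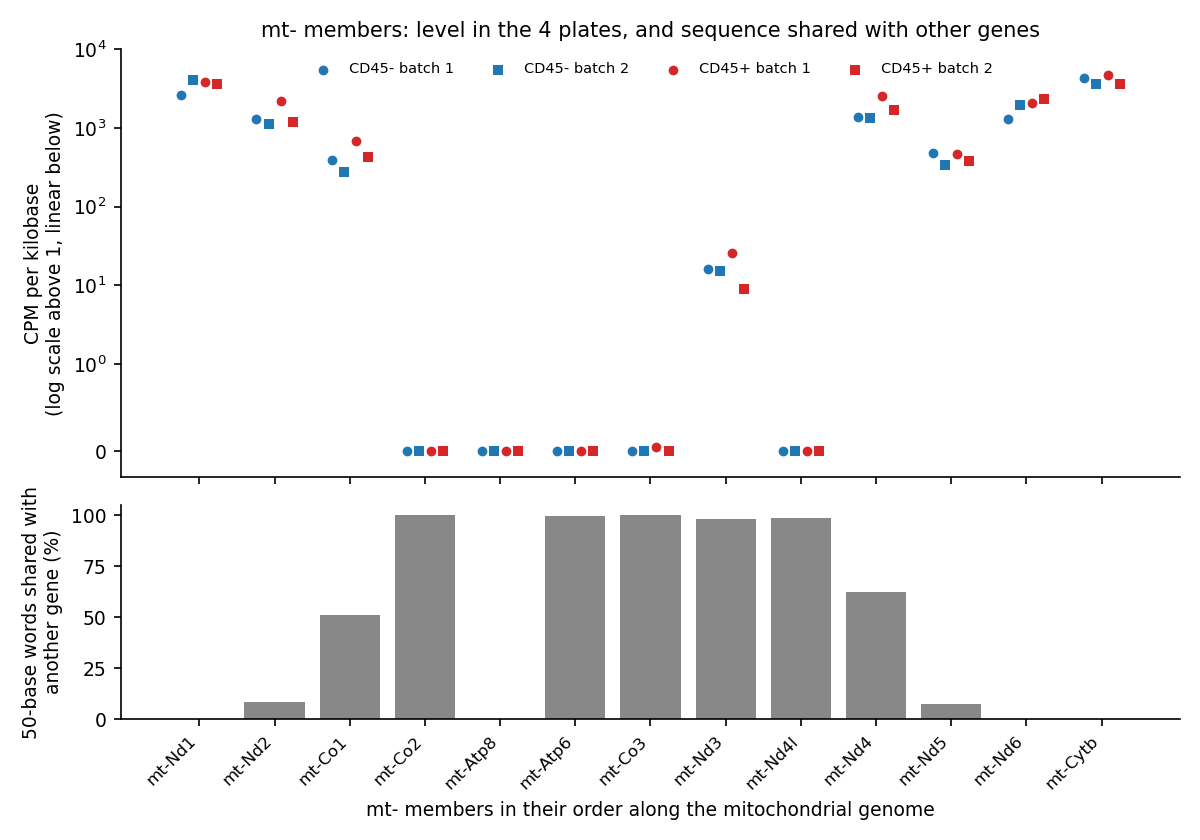
Level of each mt- gene in the 4 plates, in CPM per kilobase of gene (top, log scale above 1 and linear below, colours for gates and symbols for batches), and the percentage of its 50-base words that also stand in another gene's transcript (bottom), in genome order. The genes from mt-Co2 to mt-Nd4l lie at or near 0 and, except mt-Atp8, share 98.0% to 100% of their words.

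Nuclear members took a similar share of the reads in both gates. Their summed level in CD45- was 53935 CPM (batch 1) and 44660 CPM (batch 2), and in CD45+ it was 53425 and 38735 CPM. The log2 ratio of CD45+ over CD45- was -0.01 and -0.21, less than the log2 ratio of batch 2 over batch 1 within either gate (-0.27 in CD45-, -0.46 in CD45+). The sign turned with the scaling: with TMM factors the gate ratio was 0.39 and 0.36, and with DESeq2 factors 0.41 and 0.41. Counting error is small beside these differences: the 95% Poisson interval of the first sum was 53851 to 54019 CPM. Single wells differed more than plates did. In CD45- wells the sum ran from 15923 through a median of 52006 to 93696 CPM in batch 1, and from 15873 through 42291 to 123563 CPM in batch 2. In CD45+ wells it ran from 2249 through 41828 to 126528 CPM, and from 5572 through 33837 to 111835 CPM. The ranges of the gates overlapped in both batches, and the median CD45+ well lay lower in both. Across the wells of a plate, Spearman's rho between the nuclear sum and the reads of a well was 0.22 and 0.05 in CD45- (93 wells each) and 0.45 and 0.27 in CD45+ (92 and 90 wells), as a description of wells that share a plate.

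The mt- sum was 12837 and 13091 CPM in CD45- and 17776 and 13707 CPM in CD45+. Its log2 ratio was 0.47 in batch 1 and 0.07 in batch 2. Without well 54 of the CD45+ plate of batch 2, whose mt- genes reached 192544 CPM, the batch 2 ratio was -0.07, so its sign rests on 1 well. Medians over wells were 10889 and 11400 CPM in CD45- and 15050 and 10634 CPM in CD45+, again apart in batch 1 and not in batch 2. Wells spread over a far wider range than for nuclear genes, from 892 to 87007 and 2219 to 125684 CPM in CD45-, and from 4179 to 418568 and 875 to 192544 CPM in CD45+. The highest, well 43 of the CD45+ plate of batch 1, held 76143 reads and a nuclear sum of 3835 CPM. The mt- sum exceeded the nuclear sum in 6 and 10 CD45- wells and in 13 and 11 CD45+ wells. The median well held 5.14 and 3.81 nuclear reads per mt- read in CD45- and 2.87 and 3.29 in CD45+. Nuclear and mt- sums had little rank correlation from well to well (Spearman's rho -0.16 and 0.02 in CD45-, -0.15 and 0.05 in CD45+), whereas the mt- sum did follow the mitochondrial ribosomal RNA, with rho of 0.61 and 0.66 in CD45- and 0.50 and 0.54 in CD45+. Both RNAs come from the same genome and share the well's total, and the amount of RNA per cell cannot be told apart from its composition.

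Other signals also moved with the gate. Hemoglobin genes, which mark red blood cells, had a median of 7791 and 3091 CPM in CD45- wells and of 2.71 and 16.6 CPM in CD45+ wells. Mitochondrial ribosomal RNA, mt-Rnr1 and mt-Rnr2, summed to 31642 and 21464 CPM in CD45- and to 38334 and 27799 CPM in CD45+. With hemoglobin reads taken out of the total, the log2 gate ratio was -0.03 and -0.21 for the nuclear sum and 0.45 and 0.06 for the mt- sum.

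**Figure D2:**
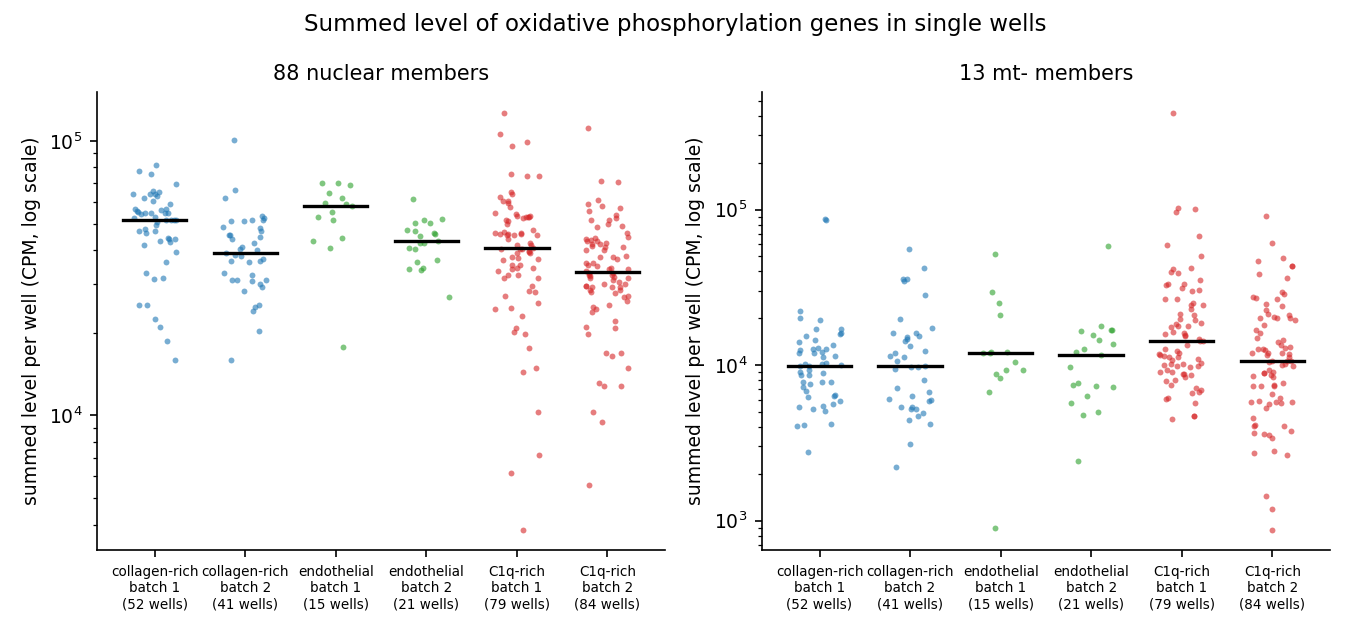
Summed CPM of the 88 nuclear members (left) and the 13 mt- members (right) in each kept well of the 3 classes and 2 batches, on log axes, with a bar at the median well. Nuclear medians run from 33247 to 57697 CPM and mt- medians from 9866 to 14209 CPM, and wells of every class overlap with those of the others.

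Among classes, endothelial wells held the highest nuclear sum in CPM in both batches, an order that other scalings did not keep. It was 56836 and 43338 CPM in endothelial wells, 50980 and 40838 CPM in collagen-rich wells and 51921 and 37809 CPM in C1q-rich wells. The log2 ratio of endothelial over collagen-rich was 0.16 and 0.09, and that of C1q-rich over collagen-rich was 0.03 and -0.11. Both comparisons share the collagen-rich wells. Wells overlapped throughout: in batch 1 the nuclear sum ran from 15923 to 81664 CPM in collagen-rich, from 17817 to 70170 CPM in endothelial and from 3835 to 126528 CPM in C1q-rich wells. With TMM factors C1q-rich wells were highest (0.36 and 0.36 over collagen-rich) and endothelial wells lowest (-0.07 and -0.24). With DESeq2 factors C1q-rich wells were again highest (0.68 and 0.49) and endothelial wells next (0.54 and 0.32). Summed hemoglobin was 43647 and 3421 CPM in endothelial wells and 6119 and 2179 CPM in collagen-rich wells. The batch 1 sum of endothelial wells rests on well 43, at 656464 CPM: the median endothelial well (6401 CPM) was below the median collagen-rich well (6905 CPM) in batch 1 and above it in batch 2 (3267 against 2124 CPM). Without well 43 the nuclear log2 ratio of batch 1 was 0.22, and without hemoglobin reads in the total the ratios were 0.21 and 0.09.

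For mt- genes, C1q-rich wells were highest in summed reads, at 17359 and 12482 CPM. Collagen-rich wells held 10915 and 11558 CPM and endothelial wells 14327 and 11585 CPM. By median well the order held in batch 1 only: 14209 and 10634 CPM in C1q-rich, 11898 and 11608 CPM in endothelial and 9908 and 9866 CPM in collagen-rich wells. The log2 ratio of C1q-rich over collagen-rich was 0.67 and 0.11, and that of endothelial over collagen-rich was 0.39 and 0.00. The batch 1 value of the latter was 0.06 without endothelial well 10, so it too rests on 1 well of 15. Mitochondrial ribosomal RNA was higher than in collagen-rich wells in both classes and both batches, by log2 0.59 and 0.66 in C1q-rich and 0.60 and 0.47 in endothelial wells. Those log2 ratios were closer between batches than the ratios of the mt- messages.

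Gene by gene, few members were called between the gates. A gene was compared when its mean over the plates was at least 20 CPM, and called when CPM + 1 differed by at least 2-fold in the same direction in both batches. Of all 5499 genes compared, 9.98% were called higher in CD45+ and 20.9% lower. Of the 78 nuclear members compared, 0 were called higher and 5 lower: Ndufs1, Ndufv1, Ndufaf1, Cox6b2 and Atp5sl. Their median log2 ratio was -0.15 and -0.31, beside -0.46 and -0.45 over all genes compared, and 42 were negative and 10 positive in both batches. Of the 7 mt- members compared, 0 were called, with medians of 0.68 and 0.17 and 4 positive in both batches. The scaling matters here. Under TMM or DESeq2 factors the median of all genes lay at -0.07 or -0.05 in batch 1 and 0.11 or 0.15 in batch 2, that of the nuclear members at 0.25 to 0.30, and the share of calls that were higher went from 32.4% to 49.2% or 50.8%. Among nuclear members 1 was then called higher and 2 lower with either set of factors, over the same genes. The gate ratios, medians and counts of the groups below are in CPM and are not corrected for this. They are to be read beside the all-gene medians of -0.46 and -0.45 and the shares of 9.98% higher and 20.9% lower. At a 1.5-fold limit 13.2% of all genes were higher and 29.9% lower, and 1 and 10 nuclear members. At 4-fold these shares were 6.13% and 9.95%, and 0 nuclear members passed in either direction.

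**Figure D3:**
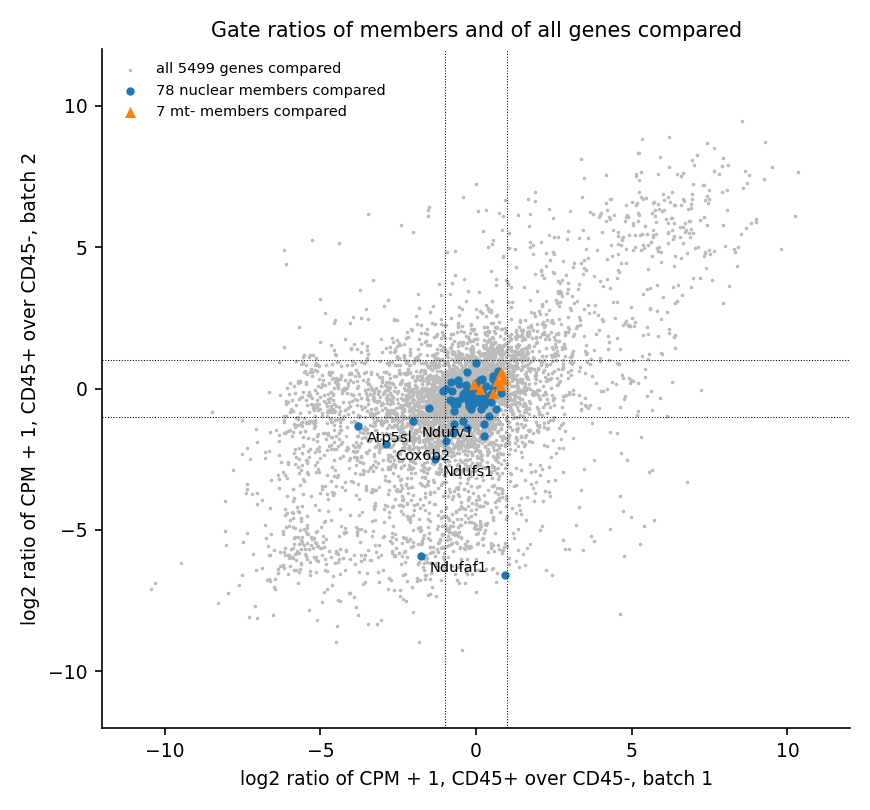
Log2 ratio of CPM + 1, CD45+ over CD45-, in batch 1 (horizontal) and batch 2 (vertical) for the 5499 genes compared (grey), 78 nuclear members (blue) and 7 mt- members (orange), with dotted lines at 2-fold. All but 5 named members lie outside the corner where both batches pass 2-fold, and the blue point near the bottom right is Cox7a1.

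Complex I is the largest group. The 37 genes grouped as its subunits, by the Nduf name alone, summed to 26517 and 20983 CPM in CD45- and to 24839 and 18617 CPM in CD45+. The log2 ratios were -0.09 and -0.17. Of 36 compared, 0 were called higher and 2 lower, with medians of -0.22 and -0.41. Ndufa13, Ndufa3, Ndufa2 and Ndufa7, all accessory subunits outside the catalytic core, took the largest shares of reads. Ndufa13, also known as GRIM-19, stood at 2342 and 1818 CPM in CD45- and 1609 and 2015 CPM in CD45+. It is uncertain where strand matters, since 27.1% of its 50-base words lie opposite transcripts of other genes, most of them Tssk6, and the strand setting of the counting is not given in the sources used here. Ndufa3 stood at 1967 and 1198 CPM in CD45- and 1953 and 1376 CPM in CD45+. Ndufa2 stood at 1515 and 1287 CPM in CD45- and 1193 and 1169 CPM in CD45+, and Ndufa7 at 1356 and 1060 against 1400 and 1062 CPM. None of these differed between gates as much as Ndufa3 did between the CD45- batches. Per kilobase of exon, Ndufa2 was the highest of the complex at a mean of 2257 CPM per kilobase, beside a median of 363 for the 37 subunits. The length used merges all annotated exons of a gene, 572 bases for Ndufa2 and 419 to 8086 bases over the group. A gene with several annotated transcripts can thus be divided by more bases than 1 message holds. Orders, medians and isoform gaps per kilobase, here and below, therefore depend on the annotation too.

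The 2 complex I subunits called lower, of 36 compared, were Ndufv1 and Ndufs1, beside 20.9% of all genes compared. No other Ndufv or Ndufs gene was called. Ndufv2 stood at 192.4 and 220.5 CPM per kilobase in CD45- and 233.6 and 164.7 in CD45+, higher in 1 batch and lower in the other. Ndufv1 binds the flavin that accepts electrons from NADH, and Ndufs1 holds iron-sulfur clusters next to it. Ndufv1 stood at 150 and 287 CPM in CD45- and at 35.99 and 129 CPM in CD45+, log2 ratios of -2.03 and -1.14. With every well thinned to 50000 reads, it was seen in 50.6% (95% Clopper-Pearson 39.1 to 62.1%) and 53.7% (42.3 to 64.8%) of CD45- wells and in 10.5% (4.66 to 19.7%) and 21.8% (13.2 to 32.6%) of CD45+ wells. Without CD45- well 79 of batch 2 the second ratio was -0.99, just short of the threshold, and without CD45+ well 70 of batch 1, which held 63.7% of that plate's reads, the first was -3.42. Ndufs1 stood at 23.95 and 75.9 CPM in CD45- and 8.95 and 12.7 CPM in CD45+, log2 ratios of -1.33 and -2.49. Few wells carry Ndufs1. CD45+ wells 20 (batch 1) and 8 (batch 2) held 91.6% and 85.6% of its reads in their plates, and without them the ratios were -3.81 and -4.74. Without CD45- wells 7 or 86 of batch 1 the first ratio was -0.39 or -0.89 and the call was lost. Under TMM or DESeq2 factors neither Ndufv1 (-0.58 or -0.53 in batch 2) nor Ndufs1 (-0.95 or -0.93 in batch 1) passed 2-fold in both batches.

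Complex I assembly factors help build the complex and are not part of it. Their 8 genes summed to 628 and 579 CPM in CD45- and 650 and 501 CPM in CD45+, and their median per kilobase was 16.4 CPM beside 363 for the subunits. Of 6 compared, 0 were called higher and 1 lower. Ndufaf8 had the most reads, 182 and 153 CPM in CD45- and 296 and 236 CPM in CD45+; its log2 ratios of 0.70 and 0.62 passed 2-fold only under TMM (1.10 and 1.19) or DESeq2 factors (1.12 and 1.23). Ndufaf3 stood at 98.7 and 128 against 172 and 115 CPM and Ndufaf4 at 101 and 59.6 against 89.5 and 35.6 CPM, directions that did not repeat or did not reach 2-fold. Ndufaf2 stood at 170 and 95.9 CPM in CD45- and 59.03 and 59.1 CPM in CD45+, but 64.1% of its words lie opposite B230220B15Rik, so its reads are uncertain too. Ndufaf1, an early factor of the assembly, was at 20.6 and 61.3 CPM in CD45- and 5.33 and 0.0351 CPM in CD45+, the last from 1 read. Its call stands at the edge of the level needed: leaving out CD45- well 12 of batch 1, or any of wells 35, 48, 68, 72 and 81 of batch 2, took its mean under 20 CPM (its log2 ratios are -1.77 and -5.91, the first -1.16 without well 12). CD45+ well 5 held 96.5% of its reads in batch 1, and without it the ratio was -4.17.

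Complex III had no called member among 8 compared. Its sum was 6576 and 5344 CPM in CD45- and 6366 and 4263 CPM in CD45+, log2 ratios of -0.05 and -0.33. The small subunits Uqcr10, Uqcrq, Uqcr11 and Uqcrh held most of its reads. Uqcr10 stood at 1988 and 1283 CPM in CD45- and 2131 and 1112 CPM in CD45+, and was the highest of the complex per kilobase, at 2788 CPM. Uqcrq stood at 1426 and 1278 against 1485 and 1050 CPM. Uqcr11 stood at 1025 and 872 against 986 and 708 CPM, and Uqcrh, the hinge protein that meets cytochrome c, at 1068 and 789 against 803 and 692 CPM. In batch 1 each of the 4 except Uqcrh differed less between gates than the batches of either gate did.

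Complex IV summed to 10759 and 9633 CPM in CD45- and 12089 and 8812 CPM in CD45+, log2 ratios of 0.17 and -0.13. Of 13 compared, 0 were called higher and 1 lower, with medians of -0.10 and -0.36. Cox4i1, a subunit with a part in regulating the enzyme by ATP, took more reads than any other nuclear member, at 3255 and 2736 CPM in CD45- and 4052 and 2891 CPM in CD45+. Cox6b1, which sits where the monomers of the enzyme's dimer meet, stood at 1640 and 1292 CPM in CD45- and 2374 and 1749 CPM in CD45+, log2 ratios of 0.53 and 0.44. By class it was at 2597 and 1599 CPM in endothelial and 2453 and 1668 CPM in C1q-rich wells, beside 1352 and 1003 CPM in collagen-rich wells. Under TMM and DESeq2 factors its C1q-rich over collagen-rich ratio passed 2-fold in both batches (1.19 and 1.20, 1.51 and 1.34). Cox6c stood at 1542 and 1233 against 1441 and 1109 CPM, and Cox6a1 at 1315 and 997 against 1209 and 778 CPM, less than 1.5-fold apart.

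Cox6b2 was lower in CD45+ wells and, within the CD45- gate, in endothelial wells. It encodes the isoform of Cox6b1 best known from testis. Its level was 276 and 214 CPM in CD45- and 36.6 and 54.7 CPM in CD45+, log2 ratios of -2.88 and -1.95. In CD45+, 88.1% of the batch 1 reads of Cox6b2 came from well 90 and 95.1% of those of batch 2 from well 18, and without them the ratios were -5.67 and -5.81. Without CD45- well 68 of batch 2, with 37.1% of its plate's reads, the second ratio was -1.33. The call remained without any single well and under both other scalings (-2.49 and -1.38 under TMM, -2.47 and -1.34 under DESeq2 factors). At 50000 reads a well, Cox6b2 was seen in 58.2% (46.6 to 69.2%) and 41.5% (30.7 to 52.9%) of CD45- wells and in 9.21% (3.78 to 18.1%) and 8.97% (3.69 to 17.6%) of CD45+ wells. Before thinning it had a read in 84 of 93 and 67 of 93 CD45- wells and in 25 of 92 and 23 of 90 CD45+ wells. By class it stood at 376 and 333 CPM in collagen-rich, 127 and 5.92 CPM in endothelial and 43.3 and 59.4 CPM in C1q-rich wells.

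ATP synthase summed to 9455 and 8122 CPM in CD45- and 9481 and 6542 CPM in CD45+, log2 ratios of 0.00 and -0.31. Of 15 compared, 0 were called higher and 1 lower, with medians of -0.14 and -0.21. Atp5e, the epsilon subunit of the catalytic head, stood at 1470 and 1182 CPM in CD45- and 1781 and 972 CPM in CD45+. Atp5j stood at 969 and 760 against 1340 and 661 CPM; 7.7% of its words lie opposite other transcripts, most of them Gabpa. Atp5k, a small membrane subunit, had 1172 and 762 against 1062 and 657 CPM and was the highest of the group per kilobase, at 1483 CPM. Atp5o, which links the head to the outer stalk, stood at 967 and 781 against 784 and 677 CPM, with 41.6% of its words shared. Each of the 4 differed less between gates than between the batches of 1 gate, Atp5o only just. Atp5sl, the called member, is an assembly factor of complex I in later naming rather than a part of this enzyme. It stood at 23.8 and 46.6 CPM in CD45- and 0.793 and 18.1 CPM in CD45+, log2 ratios of -3.79 and -1.31. CD45+ well 74 held 73.6% of its reads in batch 2 (-3.03 without it), and CD45+ well 91 held all in batch 1 (-4.63 without it). Leaving out that well 74, CD45- well 46 of batch 1 (-2.86), or CD45- wells 46 or 79 of batch 2 (-0.96 or -0.95) took it under 20 CPM. It passed neither TMM nor DESeq2 scaling.

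**Figure D4:**
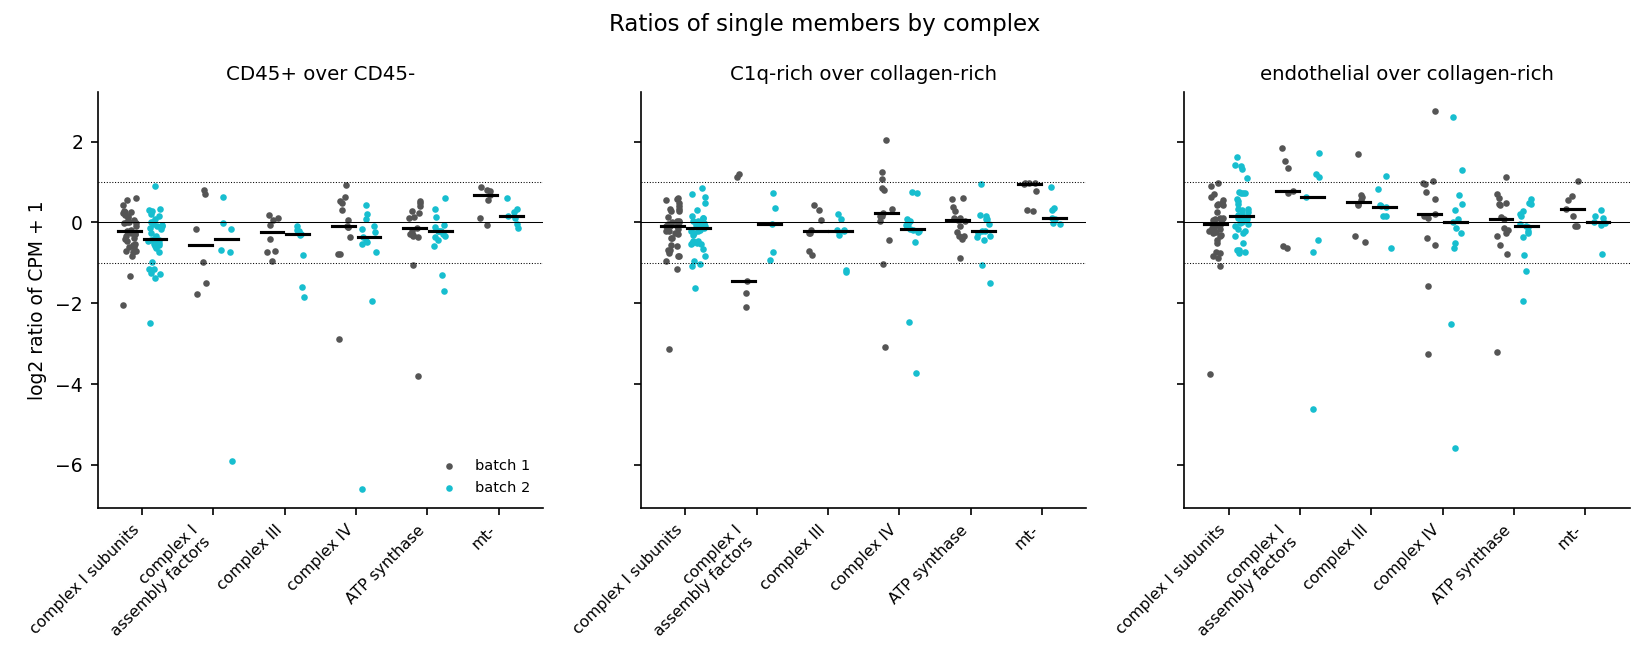
Log2 ratio of CPM + 1 of each compared member by group and batch (dots, bars at the median) for CD45+ over CD45-, C1q-rich over collagen-rich and endothelial over collagen-rich, with dotted lines at 2-fold. In CPM, medians of the gate comparison are negative in every nuclear group in both batches and positive for mt- genes (0.68 and 0.17), while with TMM or DESeq2 factors the nuclear median is positive (0.25 to 0.30).

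Of the 7 measured mt- genes, mt-Co1 was positive by a like amount in both batches. Encoding the catalytic subunit of complex IV, mt-Co1 stood at 607 and 431 CPM in CD45- and 1055 and 654 CPM in CD45+, log2 ratios of 0.80 and 0.60. In C1q-rich wells it stood at 1068 and 632 CPM beside 544 and 344 CPM in collagen-rich wells, log2 ratios of 0.97 and 0.88. Both comparisons passed 2-fold in both batches under TMM (1.20 and 1.17, 1.30 and 1.35) and DESeq2 factors (1.22 and 1.22, 1.62 and 1.48). Its level is uncertain because 51.1% of its words also stand in other transcripts. Gm29216 holds 430 of its 1496 words, the most of any, and had 16 reads.

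The complex I genes of mitochondrial DNA were less even. The values of mt-Nd4 were 1924 and 1860 CPM in CD45- and 3508 and 2345 CPM in CD45+ (0.87 and 0.33), and those of mt-Nd2 were 1338 and 1158 against 2287 and 1247 CPM (0.77 and 0.11). The values of mt-Nd1 were 2517 and 3841 against 3677 and 3473 CPM, a log2 ratio that changed sign (0.55 and -0.14), and those of mt-Nd5 were 875 and 615 against 840 and 693 CPM (-0.06 and 0.17). The gene mt-Nd6 is read from the opposite strand and overlaps the end of mt-Nd5, so its 672 and 1006 against 1076 and 1203 CPM (0.68 and 0.26) are uncertain. Cytochrome b, mt-Cytb, had the most reads of all members, at 4898 and 4176 CPM in CD45- and 5323 and 4090 CPM in CD45+ (0.12 and -0.03). Its share of the mt- reads was 38.2% and 31.9% in CD45- and 30.0% and 29.8% in CD45+. The trace of mt-Nd3 was 5.62 and 5.23 against 8.91 and 3.09 CPM. Per kilobase the order of means over the plates was mt-Cytb (4040), mt-Nd1 (3529), mt-Nd6 (1906), mt-Nd4 (1748), mt-Nd2 (1452), mt-Co1 (444) and mt-Nd5 (414). The ranges over plates overlapped for all neighbours in this order except mt-Nd1 with mt-Nd6 and mt-Nd2 with mt-Co1. The means per kilobase are divided by the full length of each gene. However, 62.2% of the words of mt-Nd4 and 51.1% of those of mt-Co1 also stand in other transcripts. How much of their length could receive counted reads was not tested. The levels of mt-Nd4 and mt-Co1 and their places in this order are therefore uncertain.

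Isoforms of complex IV and of the ring subunit of ATP synthase were unequal in level in all 4 plates, compared per kilobase of exon. Cox4i1 stood at 1765 to 2614 CPM per kilobase over the plates and Cox4i2, the isoform tied to low oxygen, at 20.1 to 72. Cox6a1 stood at 1108 to 1873 and its heart and muscle isoform Cox6a2 at 0, 0, 17.2 and 0.103, with 94.2% of the 17.2 from CD45+ well 5 of batch 1. Cox6b1 stood at 1825 to 3353 and Cox6b2 at 249 and 193 in CD45- and 33 and 49.4 in CD45+. Cox7a2 stood at 711 to 1033 and Cox7a2l, which binds supercomplexes together, at 48.2 to 112. Cox7a1, the heart and muscle isoform, stood at 75.4, 204, 144 and 0.263, an uneven pattern in which 50.1%, 53% and 62.8% of the reads of the first 3 plates came from 1 well each. Cox8a stood at 1177 to 1748, and Cox8b, Cox8c and Cox7b2 had no reads in any plate. Among the genes for the ring of ATP synthase, Atp5g3 stood at 227 to 473, Atp5g1 at 4.28 to 11.6 and Atp5g2 at 0.0376 to 0.203. The value of Atp5g1 is divided by 4912 exon bases, beside 2181 for Atp5g3, and 11.1% of its words are shared, most with Gm10039 (621 reads). Before this division Atp5g1 had 4503 reads in all kept wells and Atp5g3 had 89066. Atp5g2 had 20 reads in all and shares 38.3% of its words with other genes, most with Gm10175, so its low level is uncertain.

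**Figure D5:**
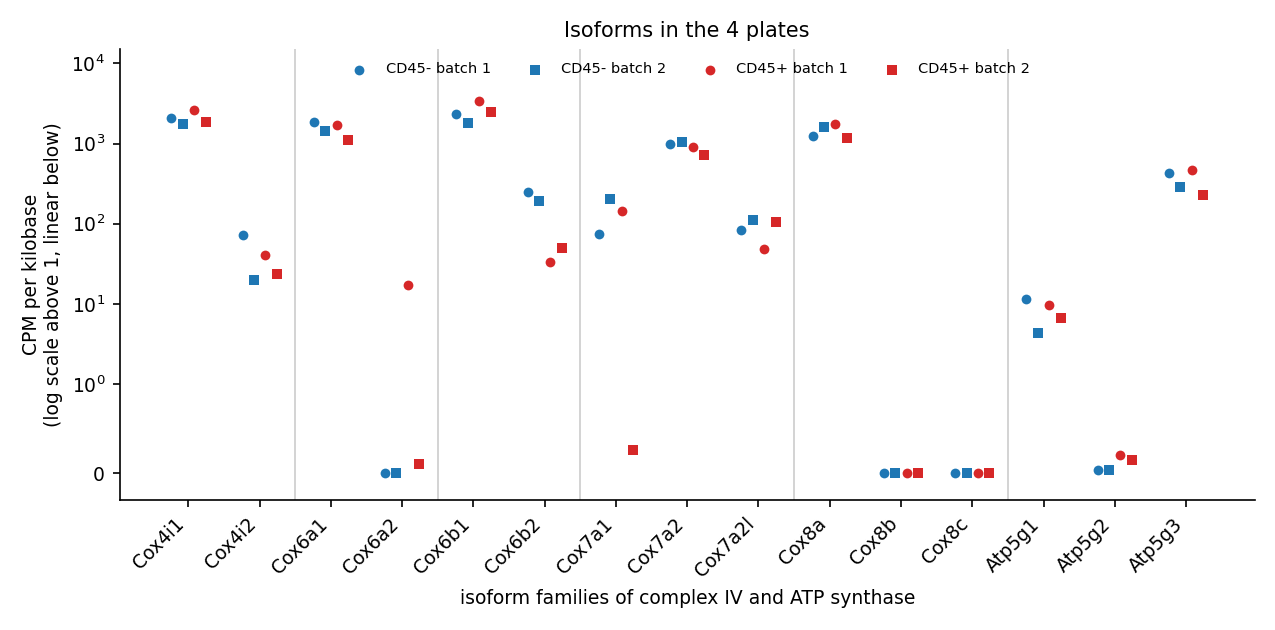
CPM per kilobase of exon of isoform families of complex IV and the ATP synthase ring in the 4 plates (log scale above 1, linear below, colours for gates and symbols for batches). Cox4i1, Cox6a1, Cox6b1, Cox7a2, Cox8a and Atp5g3 lead their families in every plate, and Cox6b2 is lower in both CD45+ plates.

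The start regions of the Cox6b pair are shown because the 2 isoforms differ in opposite directions between the same gates. They are 300 bases each from RefSeq (GRCm38.p6), 250 before and 50 after the annotated start, both on the minus strand, Cox6b1 at chr7:30626065-30626364 and Cox6b2 at chr7:4753045-4753344. Capitals mark a match, read on the other strand, to the ETS-type motif CCGGAAG that GABP binds.
Cox6b1: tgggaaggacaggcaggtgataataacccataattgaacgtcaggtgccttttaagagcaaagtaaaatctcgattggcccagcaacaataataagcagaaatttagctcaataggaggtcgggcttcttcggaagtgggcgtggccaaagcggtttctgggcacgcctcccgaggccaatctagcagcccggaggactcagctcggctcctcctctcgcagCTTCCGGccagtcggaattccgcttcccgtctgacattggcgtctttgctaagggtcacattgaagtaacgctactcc
Cox6b2: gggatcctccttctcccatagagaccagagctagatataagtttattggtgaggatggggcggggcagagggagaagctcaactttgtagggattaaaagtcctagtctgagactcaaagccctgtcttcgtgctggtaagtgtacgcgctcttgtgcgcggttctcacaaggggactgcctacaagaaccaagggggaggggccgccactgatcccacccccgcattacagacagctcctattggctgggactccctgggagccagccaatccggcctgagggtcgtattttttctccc
The letters searched on both strands were CGCATGCG for NRF1. For ETS factors they were the CCGGAAG above. For YY1 they were AAGATGGCG, which can share AAG with an adjoining ETS match. A TATA box was searched as TATAAA. The 300 bases of Cox6b2 hold none of the 4. RefSeq start regions were matched, by symbol or through the RefSeq gene table, for 71 of the 88 nuclear members. The NRF1 letters stood in 11 of them (15.5%, beside 2.07% of 27025 genes with such regions), the ETS letters in 16 (22.5% beside 9.93%), the YY1 letters in 8 (11.3% beside 1.64%) and the TATA letters in 7 (9.9% beside 15.67%). A longer NRF1 form, with G before and C after these letters, was searched first and stood in 7 (9.9% beside 1.07%). Any of NRF1, ETS and YY1 stood in 28 (39.4% beside 12.81%), with the highest share in complex III (3 of 5) and the lowest in complex IV (3 of 13). A match is a description of these letters and not a bound site.

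In the comparison of C1q-rich with collagen-rich wells, 11.7% of 5427 genes were called higher and 23.8% lower. Of 75 nuclear members compared, 0 were higher and 1, Cox6b2, was lower (log2 ratios of -3.09 and -2.47). With TMM factors 3 were higher and 1 lower, and with DESeq2 factors 4 were higher and 1 lower. Without C1q-rich well 90 of batch 1 or well 18 of batch 2 its ratios were -6.08 and -6.37, and without collagen-rich well 68 of batch 2 the second was -1.83. Nuclear medians were -0.03 and -0.19 beside -0.51 and -0.40 over all genes compared, and mt- medians were 0.95 and 0.12 with 0 of 7 called. At a 1.5-fold limit 15.8% of all genes were higher and 31.3% lower, and 3 and 7 nuclear members; at 4-fold 7.89% and 13.3%, and 0 and 1. By group the log2 ratio of sums was -0.08 and -0.09 for complex I subunits, 0.02 and -0.16 for complex III, 0.34 and 0.03 for complex IV and -0.05 and -0.29 for ATP synthase.

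Between endothelial and collagen-rich wells, which share plates and gate, 11.9% of 5623 genes were called higher in endothelial wells and 15.4% lower, 27.3% in either direction. Of 79 nuclear members compared, 3 were higher, Ndufaf3, Ndufaf5 and Uqcrfs1, and 1 lower, Cox6b2. Nuclear medians were 0.09 and 0.16 beside -0.13 and 0.12 over all genes compared, and mt- medians were 0.33 and 0.01 with 0 of 7 called. At a 1.5-fold limit 17.3% of all genes were higher and 19.7% lower, and 7 and 2 nuclear members; at 4-fold 6.12% and 10.1%, and 0 members. The share of calls that were higher was 43.7%, and 35.7% under TMM or 52.9% under DESeq2 factors. Cox6b2 was at 127 and 5.92 CPM in endothelial wells against 376 and 333 CPM, log2 ratios of -1.56 and -5.59, and -2.80 in batch 1 without endothelial well 30 or -4.96 in batch 2 without collagen-rich well 68. Uqcrfs1, the Rieske iron-sulfur protein of complex III, stood at 229 and 248 CPM in endothelial wells against 69.8 and 111 CPM in collagen-rich wells, log2 ratios of 1.70 and 1.15. The second ratio was 0.17 without endothelial well 20 and 0.91 without well 24, both of batch 2, and the first was 2.46 without collagen-rich well 12 of batch 1.

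The other higher calls rest on few endothelial wells. Ndufaf3 stood at 163 and 163 CPM in endothelial wells against 56.5 and 74.2 CPM in collagen-rich wells (1.51 and 1.13); leaving out endothelial wells 30 or 41 of batch 1 (0.93 or 0.97) or wells 46 or 72 of batch 2 (0.42 or 0.71) ended the call, and without collagen-rich well 47 of batch 1 the first ratio was 2.67. Ndufaf5 was at 58.1 and 53.6 CPM in endothelial and 15.4 and 15.5 CPM in collagen-rich wells (1.85 and 1.73). Without endothelial well 22 of batch 1 or 36 of batch 2 the ratio turned to -3.53 or -3.60, and without collagen-rich well 9 of batch 1 or 42 of batch 2 it was 4.52 or 5.26. Only Cox6b2 and Ndufaf5 were called under all 3 scalings. By group the log2 ratio of sums was 0.31 and 0.27 for complex III, 0.47 and 0.22 for complex IV, 0.84 and 0.08 for assembly factors, 0.03 and 0.10 for complex I subunits and -0.01 and -0.27 for ATP synthase.

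Batch 2 held lower nuclear sums than batch 1 in both gates (log2 ratios of -0.27 and -0.46), and the mt- sum was level in CD45- (0.03) and lower in CD45+ (-0.37). All 5 nuclear groups were lower in batch 2 in both gates, from -0.12 for assembly factors to -0.34 for complex I subunits in CD45- and from -0.37 to -0.58 for complex III in CD45+. With 2-fold in both gates as the call, 7.51% of 5499 genes were higher in batch 2 and 3.58% lower. Of 78 nuclear members 2 were higher and 0 lower, with medians of -0.31 and -0.45 beside 0.13 and 0.09 over all genes compared, and 46 were lower in both gates. Uqcrc1, a core protein of complex III, went against its complex, from 189 to 422 CPM in CD45- and from 116 to 241 CPM in CD45+ (1.15 and 1.05). Leaving out any of 7 CD45+ wells of batch 2 (3, 18, 28, 31, 35, 43 and 94) ended that call, at 0.61 to 0.99. Ndufaf7, a methyltransferase for a complex I subunit, went from 22.5 to 56.4 CPM and from 11.03 to 55.97 CPM (1.29 and 2.24). Without CD45+ well 26 of batch 1 or well 94 of batch 2 its second ratio was 3.15 or 1.41.

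Fewer nuclear members were seen per CD45+ well. At 50000 reads in each of 315 wells deep enough, the median well held 59 and 57 of the 88 in CD45- and 51 and 45 in CD45+, and without thinning 71 and 70 against 63 and 62 in the same wells. The median of measured mt- members was 7 in every plate. The reads were also more concentrated: the most abundant member of a well took a median of 9.61% and 9.41% of its nuclear member reads in CD45- and 13.4% and 14.6% in CD45+, and 9 and 10 members against 7 and 6 made up 50% of them. Endothelial and collagen-rich wells were alike in this, at 60 and 57 members against 58 and 57, while C1q-rich wells held 51 and 45.5. The total number of genes per well moved the same way, with medians of 3707 and 3572 in CD45- and 2449 and 2711 in CD45+, and its part was not tested.

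In the other lists, all small, 0 genes were called higher in CD45+ against CD45-. Of all 5499 genes compared, 9.98% were higher and 20.9% lower, with medians of -0.46 and -0.45. For complex II and cytochrome c 0 of 6 were called, and for the citric acid cycle 0 of 12, with medians of -0.53 and -0.44, and -0.10 and -0.85. The mitochondrial ribosome had 2 of 64 lower, Mrpl20 (415 and 420 against 192 and 187 CPM) and Mrpl4 (128 and 123 against 18.8 and 60 CPM), with medians of -0.28 and -0.17. Only 2 of 10 genes of mitochondrial DNA expression and 2 of 7 regulators of nuclear members reached 20 CPM, and 0 of them were called. Of 6 carriers and pores 2 were lower, with medians of -0.54 and -0.85. Slc25a4, the ADP/ATP carrier of heart and muscle that exchanges the product of ATP synthase, stood at 1525 and 1580 CPM in CD45- against 322 and 411 CPM in CD45+ (-2.24 and -1.94). The outer-membrane pore gene Vdac3 stood at 179 and 169 against 41.1 and 64.4 CPM (-2.09 and -1.38). Of 16 glycolysis genes 12 were compared and 1 was lower, Aldoa, at 1127 and 1210 against 462 and 591 CPM (-1.29 and -1.03). The others fell short of 20 CPM. Over the plates Gapdh stood at 0.24 to 0.45 CPM, Pgam1 at 0 to 0.25, Pgk1 at 1.7 to 6.2 and Pfkm at 0.53 to 10.8. The reason for these low values was not tested, so the genes compared do not stand for the whole pathway. Ndufa4l2, which the naming rule leaves out and which is tied to low oxygen, stood at 653 and 374 CPM in CD45- and 44 and 56.5 CPM in CD45+ (-3.86 and -2.71).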

How the data were processed

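Per the labels, single cells were sorted into lysis buffer in 96-well plates, made into barcoded SMARTer libraries and sequenced in pairs of 50 bases. The deposited values are raw read counts per gene, made by the authors with STAR and featureCounts 1.4.5 of Subread, per the submitters' processing notes. Genome build, annotation, strand setting and the treatment of reads that match several places are not given in the sources used here.

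The 598 of 41192 and 595 of 41228 lines that repeat a gene identifier were dropped. Reads were summed over the kept wells of a plate or class and divided by the total on genes to give CPM; ratios are log2 of CPM + 1. The members, marker and gene lists were chosen with earlier results of these data known. Named are the 4 most abundant members of each nuclear group, all mt- members, members past 2-fold in both batches (up to 12 per direction), the isoform families, members without reads, and such members of the other lists in the gate comparison, with Ndufa4l2. Pdgfrb and Ptprc were added after their values were seen. Python 3.11.15 with numpy 2.4.6, pandas 2.3.3 and scipy 1.17.1 was used. TMM (edgeR 4.0.16) and median-of-ratios factors (DESeq2 1.42.0, R 4.3.3) served only as alternative scalings. Nothing was tested, no doublet caller was run, and 16 shallower wells were left out.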

Additional observations from a re-analysis of the deposited data

Results flagged for a closer look

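The 16 wells left out for low depth, of 5323 to 9740 reads, also carried these genes. Their nuclear members summed to 42375 CPM and their mt- members to 15718 CPM, within the range of the kept plates. Mitochondrial ribosomal RNA, which is not protein-coding and so enters no sum here, was abundant in all 4 plates: 31642 CPM in CD45- batch 1, 38334 CPM in CD45+ batch 1, 21464 CPM in CD45- batch 2 and 27799 CPM in CD45+ batch 2. It was higher in CD45+ in both batches, by log2 0.28 and 0.37. These are values from wells and genes outside the comparisons.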

How the results depend on the processing

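Ratios are given here as the mean log2 ratio of both batches, and batch ratios as the mean of both gates. With TMM factors the nuclear sum of CD45+ over CD45- went from -0.11 to 0.38, C1q-rich over collagen-rich from -0.04 to 0.36 and endothelial over collagen-rich from 0.12 to -0.16, and the mt- sums went from 0.27, 0.39 and 0.20 to 0.75, 0.79 and -0.08. With DESeq2 factors the nuclear values were 0.41, 0.58 and 0.43 and the mt- values 0.79, 1.02 and 0.51. The mean of CPM per well gave nuclear values of -0.25 (gates) and -0.19 (C1q-rich), and the median over wells -0.32 and -0.29. Of the 15 alternatives for the nuclear gate sum, 13 were negative.

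The counts of nuclear members past 2-fold (5 for gates, 1 for C1q-rich, 4 for endothelial wells, and 0 for mt- members between gates) were 2, 4, 2 and 1 with TMM and 2, 5, 7 and 1 with DESeq2 factors. The gate counts here differ from the 1 higher and 2 lower given above for either set of factors, which were taken over the genes compared in CPM. A 1.5-fold limit gave 11, 10, 9 and 1, and a 4-fold limit gave 0 between gates and 0 for endothelial wells. For C1q-rich wells the count was 3 without mt- reads in the total, 6 with the mean of CPM per well, 2 and 3 with class limits of 500 and 2000 CPM, and 4 with a minimum of 1 CPM or none. Leaving out 1 well at a time gave 3 to 6 between gates, with 3 without CD45- well 79 of batch 2, and 1 to 4 for C1q-rich wells, where 33 wells each changed it and collagen-rich well 14 of batch 2 gave 4. Chosen after seeing the data, wells with mt- members under 50000 CPM gave 2 for C1q-rich wells, and wells of a single class gave 4, with an mt- ratio of endothelial over collagen-rich wells of -0.13. The share of all calls that were higher was 32.9% for C1q-rich wells, and 46.4% or 53.05% with TMM or DESeq2 factors. The mean batch ratio was -0.42 to -0.24 for nuclear and -0.24 to -0.09 for mt- sums over 12 alternatives each, but the mt- ratio within CD45- differed in sign, from -0.11 with TMM factors to 0.25 with the mean of CPM per well. The causes were not tested.

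No paired analysis was possible because replicate numbers only name wells in accession order and no result comes from a test. With 1 plate per gate and batch, gate, plate and animal cannot be told apart. Members of low CPM rest on few wells, and strand and multiple matches limit the genes named as uncertain, but not those alone. Of the 88 nuclear members, 67 shared under 10% of their words with other transcripts. Among the rest are genes not named above as uncertain, such as Ndufb6 (31.6%), Uqcrb (25.5%) and Cox7c (22.1%). They enter the nuclear and group sums, which carry the same limit.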
